A study of Homo sapiens with 6 samples.

Results

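The regions described here are stretches of the genome where the DEK peaks called in 2 precipitations overlapped. They lie at the start of a noncoding gene, away from the start of any protein-coding gene. The 2 DEK peak lists overlapped by at least 1 bp in 4453 intervals, and 4435 of these lay on an assembled chromosome of hg19. An interval was kept when its middle was at most 1000 bp from a transcription start site (TSS) of a noncoding gene and farther than 1000 bp from every TSS of a protein-coding gene, by the transcripts of GENCODE release 44 on GRCh37, which has the sequence of hg19. This gave 299 noncoding-start intervals. The 2 sets they are compared with are the 862 intervals within 1000 bp of a protein-coding TSS (coding-start intervals) and the 3274 intervals with no TSS of any kind within 1000 bp. Beyond the call of a DEK peak in both precipitations, no level of binding entered the rule, and it did not use H3K4me3.

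All samples were U937 cells, an established human leukemia cell line of the myeloid lineage, untreated and crosslinked with formaldehyde. There were 2 precipitations with an antibody against DEK, 2 with an antibody against histone H3 trimethylated at lysine 4 (H3K4me3) and 2 samples of non-precipitated chromatin (Input). DEK peaks had been called with MACS, and each precipitation has its own list. DEK replicate 1 had 15017 peaks with 988363 tags, and DEK replicate 2 had 152779 peaks with 4172422 tags, where a tag is a sequenced fragment end counted in a peak. The false discovery rate in the list was 100% for every peak of DEK replicate 1 and 0.74% to 16.67% in DEK replicate 2. The H3K4me3 lists hold positions only, 47523 peaks over 85.7 Mb in replicate 1 and 29335 peaks over 56.5 Mb in replicate 2. Of the H3K4me3 replicate 2 peaks, 92.2% touched a peak of replicate 1. The number of reads of each sample is not in these lists, so the depth behind each peak is given as its tags.

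DEK is a chromatin protein that binds DNA and histones and changes the topology of DNA, and it is best known in leukemia as part of the DEK-NUP214 fusion. H3K4me3 is the histone mark found at the start of genes that RNA polymerase II transcribes, so that it serves as a measure of an active start site that is separate from DEK. Noncoding genes make RNAs that are not translated. They include long noncoding RNAs (lncRNAs), which are usually made by RNA polymerase II from promoters like those of messenger RNAs. Small RNAs of splicing, RNA modification and protein export are made by RNA polymerase II or III from compact promoters. Pseudogenes are copies of genes that have lost their coding function and often have no active promoter.

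Sequence from 6 of the intervals is shown as examples of the DNA in the set. Each run is the 150 bp around the middle of the interval on the plus strand of GRCh37, with the dinucleotide CpG in capitals, since CpG-rich DNA is typical of promoters of broadly active genes. The first 3 are among the 5 intervals that ranked highest when each was given the smaller of its 2 fold enrichments.
LINC01686 (chr1:182583895-182584044): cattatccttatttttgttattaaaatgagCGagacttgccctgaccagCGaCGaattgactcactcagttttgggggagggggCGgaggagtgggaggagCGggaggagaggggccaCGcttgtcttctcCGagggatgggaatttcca
LINC00350 (chr13:20161078-20161227): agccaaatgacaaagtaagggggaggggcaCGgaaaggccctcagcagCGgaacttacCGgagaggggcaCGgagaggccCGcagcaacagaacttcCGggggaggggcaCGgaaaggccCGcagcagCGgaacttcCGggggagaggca
RFKP6 (chr3:158344521-158344670): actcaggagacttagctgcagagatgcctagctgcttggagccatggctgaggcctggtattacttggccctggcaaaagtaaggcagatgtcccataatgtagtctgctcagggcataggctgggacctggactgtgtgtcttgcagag

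The other 3 are intervals at lncRNAs known from myeloid cells and leukemia.
MIR3142HG (chr5:159894812-159894961): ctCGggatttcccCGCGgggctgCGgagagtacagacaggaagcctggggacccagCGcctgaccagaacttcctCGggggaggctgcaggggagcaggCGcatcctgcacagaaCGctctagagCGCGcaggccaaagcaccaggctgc
LINC00877 (chr3:72149959-72150108): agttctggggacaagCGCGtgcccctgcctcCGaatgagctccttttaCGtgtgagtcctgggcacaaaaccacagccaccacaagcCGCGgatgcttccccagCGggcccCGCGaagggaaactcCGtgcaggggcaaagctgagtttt
MIR17HG (chr13:92001328-92001477): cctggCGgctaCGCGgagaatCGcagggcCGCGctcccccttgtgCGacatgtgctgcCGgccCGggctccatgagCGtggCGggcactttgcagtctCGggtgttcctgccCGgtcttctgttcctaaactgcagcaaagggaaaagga

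The run at the pseudogene RFKP6 held 0 CpG and that at LINC01686 held 7. Those at LINC00350, MIR3142HG and LINC00877 held 10 each, and that at MIR17HG held 13.

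Most of the noncoding-start intervals lay at lncRNAs. A lncRNA TSS was within 1000 bp of the middle for 197 of 299 intervals, or 65.9% (95% Wilson interval 60.3% to 71.0%). The other 102 intervals comprised 61 at pseudogenes, 32 at small RNAs, 5 at TEC genes (a provisional GENCODE class) and 4 at segments of immunoglobulin or T-cell receptor genes. These kinds follow the annotated gene type only. Whether an entry typed as a small RNA is a working gene or a copy of one was not examined. Small RNA genes with a lncRNA TSS beside them, such as RN7SL2 and RNU1-1, count as lncRNA-start intervals here. Within 1000 bp of the 299 middles lay the start sites of 324 of 44286 annotated noncoding genes (0.732%). This share was 1.13% for lncRNA genes (212 of 18702), 0.426% for miRNA genes (13 of 3049) and 0.317% for processed pseudogenes (32 of 10087). Some types with few annotated genes had higher shares, such as transcribed unitary pseudogenes (6 of 153, 3.92%) and V segments of T-cell receptor genes (2 of 95, 2.105%). The shares take no account of the number of TSSs per gene or of coding TSSs nearby, so they are not a ranking of the types. The 299 intervals came from 278 DEK replicate 1 peaks and 296 DEK replicate 2 peaks and had 274 different nearest genes, so some of them are not independent of each other. For 128 intervals the nearest gene has only an identifier and no symbol.

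Enrichment at these intervals was of the same order as elsewhere in the shared list. The median fold enrichment over the local background was 5.17 in DEK replicate 1 (range 2.90 to 18.09) and 3.96 in DEK replicate 2 (2.30 to 10.99). At coding-start intervals the medians were 4.95 and 3.86, and away from any TSS they were 5.44 and 4.23. The 3 sets therefore kept the same order in both precipitations, with the noncoding-start intervals in the middle and differences that are small beside the range within each set. Their peaks held more tags than those away from any TSS, with medians of 92 against 57 in DEK replicate 1 and 35 against 28 in DEK replicate 2. At coding-start intervals the medians were 87 and 37 tags. The median width of the shared interval was 775 bp, between 888 bp at coding-start intervals and 667 bp away from any TSS.

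The highest enrichment by the smaller of the 2 folds was at SNORD3A, the gene of U3 small nucleolar RNA, which guides the cleavage of ribosomal RNA precursors. Its interval (chr17:19091343-19093114) had a fold enrichment of 17.16 in DEK replicate 1 and 10.99 in DEK replicate 2, with 531 and 118 tags. The middle lay 899 bp into the transcribed side of the TSS, outside any annotated exon. The median 31-mer of the interval occurred 5 times in the genome, so reads there could also stem from the near-identical U3 copies nearby. LINC01686 (chr1:182583260-182584678) followed with 7.54 and 7.73, and LINC00350 (chr13:20160942-20161362) with 10.99 and 7.26. The interval named after snosnR60_Z15 (chr7:131601425-131602148) had 8.20 and 7.26. The processed pseudogene RFKP6, a copy derived from the riboflavin kinase gene, had 6.64 and 7.86 over its single exon (chr3:158344329-158344861). LINC01686, LINC00350 and SNORD3A carried an H3K4me3 peak in both replicates, and the snosnR60_Z15 and RFKP6 intervals carried none.

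Over all 299 noncoding-start intervals, 48.8% had an H3K4me3 peak in both replicates and 36.8% in neither. Over all 4435 shared intervals these shares were 33.7% and 49.7%. Of the 15 noncoding-start intervals with the largest lower fold, 7 had a peak in both replicates and 7 had none in either, which is near the shares of the set. Besides SNORD3A, LINC01686 and LINC00350, those with the mark in both were the lncRNAs ENSG00000237461 (6.18 and 6.0 in the 2 DEK replicates), ENSG00000251574 (5.86 and 6.36) and LINC01275 (6.18 and 5.68) and the TEC gene ENSG00000279422 (8.35 and 5.97). The middle of the interval at ENSG00000237461 lay 2412 bp from the nearest coding TSS, that of NR4A3, which encodes a nuclear receptor. Without the mark were the pseudogenes ENSG00000240669 (6.01 and 6.0) and FAM136BP (6.91 and 5.67), the antisense lncRNA PAXIP1-AS2 (6.25 and 6.0), ENSG00000232667 inside CD36 (7.05 and 5.91), RNU6-412P (5.86 and 6.25), and the snosnR60_Z15 and RFKP6 intervals named above. RNU1-28P (5.67 and 8.80) was marked in H3K4me3 replicate 1 only, and its distance to the nearest peak of replicate 2 was 235 bp.

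The score of MACS, which is 10 times the negative log10 of a p-value and grows with the number of tags, ordered the intervals differently. The 5 largest values of the lower score were at ENSG00000279422 (376.3 in DEK replicate 1 and 347.0 in DEK replicate 2), SNORD3A (339.8 and 480.9), the lncRNA ENSG00000285163 (316.4 and 335.6), the TEC gene ENSG00000279811 inside MBP (329.0 and 237.6) and the lncRNA ENSG00000286117 (281.2 and 221.5). All of these but ENSG00000279811 had an H3K4me3 peak in both replicates, where the share over all 299 intervals was 48.8%. The interval at ENSG00000279811 had 204 and 65 tags, and the nearest H3K4me3 peaks were 197 bp away in replicate 1 and 46589 bp away in replicate 2. The middle of the interval at ENSG00000285163 (chr16:85967869-85968844) lay 20707 bp from the nearest transcript TSS of IRF8. That gene encodes a transcription factor of monocyte development. Another interval at a TSS of the same lncRNA (chr16:85962744-85967160) shared its DEK replicate 2 peak of 6101 bp and was marked in H3K4me3 replicate 1 only.

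**Figure D1:**
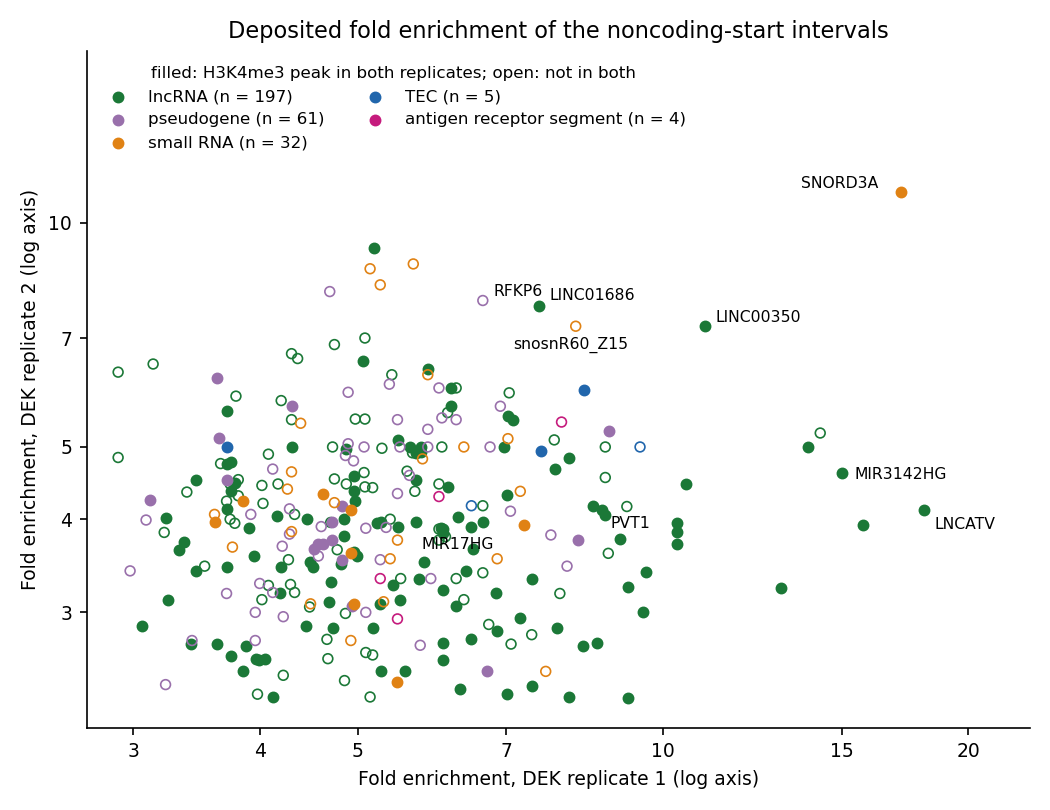
Fold enrichment of the 299 noncoding-start intervals in DEK replicate 1 (x axis) and DEK replicate 2 (y axis), both on log axes, with 1 point per interval and the color giving the kind of noncoding gene. Filled points had an H3K4me3 peak in both replicates and open points did not, and SNORD3A at 17.16 and 10.99 is the highest in DEK replicate 2 and below only LNCATV (18.09 and 4.11) in DEK replicate 1.

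Members of 3 lists of noncoding genes were looked up in the set. Of 23 annotated small RNA genes of abundant RNAs, 5 had a noncoding-start interval, where the share over all annotated genes was 0.575% for snRNA, 0.480% for snoRNA and 0.394% for misc_RNA genes. They were SNORD3A, RN7SL2, which encodes the RNA of the signal recognition particle (4.84 and 3.80 in the 2 DEK replicates), RNU1-1 of the U1 spliceosomal RNA (7.02 and 2.33), and RNU4-1 and RNU4-2 of the U4 spliceosomal RNA, which share 1 interval between them (4.62 and 4.32). RN7SK and RMRP were among the 18 small RNA genes without a shared interval at their TSS. The interval at RN7SL2 (chr14:50329071-50329932) had its middle 66 bp inside the transcribed part, while that of RNU4-2 (chr12:120729841-120730544) had its middle 486 bp upstream. U1 and 7SL RNA also have many copies in the genome, and the median 31-mer of the RNU1-1 interval occurred 3 times.

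Of 42 annotated lncRNA genes that are active in most cells, 2 had a noncoding-start interval, where the share over all lncRNA genes was 1.13%. SNHG17, a host gene of small nucleolar RNAs, had 4.72 and 2.86 (chr20:37062901-37064195), and SNHG6, of the same kind, had 4.12 and 2.31 (chr8:67837072-67838887). SNHG5 had a shared interval too, but a coding TSS was also within 1000 bp. The other 39 genes had none.

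Of 30 annotated lncRNA and miRNA genes known from myeloid cells and leukemia, 4 had a noncoding-start interval, where the share was 1.13% over all lncRNA genes and 0.426% over all miRNA genes. MIR3142HG, the host transcript of miR-3142 and miR-146a, had 15.01 and 4.62 with 201 and 41 tags (chr5:159894356-159895416), and the middle lay 389 bp upstream of the TSS. PVT1, the lncRNA next to MYC, had 8.70 and 4.12 (chr8:129061085-129061970) at an internal TSS of the gene. The middle of this interval lay 310208 bp from the nearest transcript TSS of MYC. LINC00877 had 7.02 and 4.31 with the middle 3 bp from its TSS (chr3:72149720-72150347). MIR17HG, the host of the miR-17-92 cluster, had 6.47 and 3.91 with the middle 30 bp from its TSS (chr13:92001193-92001611). Every interval named from the 3 lists had an H3K4me3 peak in both replicates. This share was 48.8% over all 299 noncoding-start intervals, 59.9% over the lncRNA-start intervals and 33.7% over all 4435 shared intervals. The lists hold abundant or well-known RNAs and the named intervals are few, so they do not stand for the set. In each of these 4 myeloid intervals the fold was higher in DEK replicate 1, which was also the case for the medians over the whole set.

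H3K4me3 was present at many of the noncoding-start intervals, but at fewer than at coding-start intervals. A peak overlapped 187 of the 299 intervals in H3K4me3 replicate 1 (62.5%, background over all 4435 shared intervals 49.9%) and 148 in replicate 2 (49.5%, background 34.1%). In both replicates at once the count was 146, or 48.8% (95% Wilson interval 43.2% to 54.5%), where the background was 33.7%. Another 41 intervals were marked in replicate 1 only, 2 in replicate 2 only and 110 in neither. At coding-start intervals 675 of 862 were marked in both (78.3%, 75.4% to 80.9%), and away from any TSS 673 of 3274 (20.6%, 19.2% to 22%).

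The share at noncoding-start intervals differed from that at coding-start intervals by -29.5 percentage points (Newcombe 95% interval -35.7 to -23.1) and was 28.3 points above that away from any TSS (22.5 to 34.1). These intervals treat the regions as independent draws and cover counting error only. They say nothing of the spread between precipitations, which was not estimated with 2 of each. Taking the H3K4me3 replicates one at a time gave differences from coding-start intervals of -22.7 points in replicate 1 and -28.8 in replicate 2, and from intervals away from any TSS of 23.1 and 28.4. The 2 DEK lists taken singly gave different shares. By the peaks of DEK replicate 1 alone, 791 lay at noncoding start sites and 47.2% of them were marked in both H3K4me3 replicates. By those of DEK replicate 2 alone, 7266 did, and 11.1% were marked. In that list the difference from coding-start peaks was -26.5 points, but that from peaks away from any TSS was 7.86 points.

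**Figure D2:**
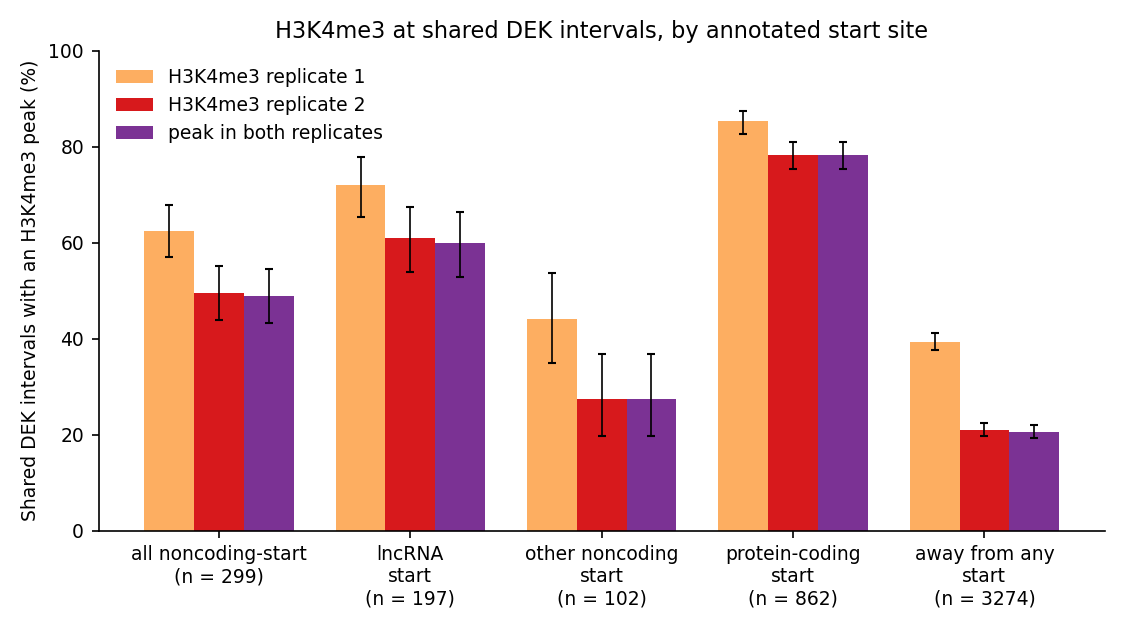
Share of shared DEK intervals that overlap an H3K4me3 peak (y axis, percent) in replicate 1, in replicate 2 and in both, for the 299 noncoding-start intervals, for the lncRNA-start and other noncoding-start intervals among them, and for intervals at a protein-coding TSS or away from any TSS; bars are shares and error bars 95% Wilson intervals. The shares in both replicates are 48.8%, 59.9%, 27.5%, 78.3% and 20.6% from left to right.

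The share differed by the kind of noncoding gene. Among lncRNA-start intervals 118 of 197 were marked in both replicates (59.9%, 52.9% to 66.5%), and among the other noncoding-start intervals 28 of 102 (27.5%, 19.7% to 36.8%), a difference of 32.5 points (Newcombe 95% interval 20.8 to 42.6). By the peaks of DEK replicate 2 alone this difference was 13.2 points (11.8 to 14.6), and by those of DEK replicate 1 alone 30.7 points (23.6 to 37.2). The lncRNA-start share differed from that at coding-start intervals by -18.4 points (-25.85 to -11.2). For the other noncoding types the share was 6.90 points above that of intervals away from any TSS, and the interval of this difference ran from -0.957 to 16.4, so no difference was detectable with 102 intervals.

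By the type of the nearest TSS, 8 of 34 intervals at processed pseudogenes were marked in both replicates and 1 of 11 at unprocessed pseudogenes. Processed pseudogenes arose by reverse transcription of a messenger RNA and were inserted without its promoter. At transcribed unitary pseudogenes, which stand at the place of a gene that lost its function and for which a transcript is known, the count was 5 of 8, from 3 genes. AHSA2P had 2 marked intervals within 1 DEK replicate 1 peak (4.71 and 3.96, and 4.71 and 3.75), SSPOP had 2 within 1 DEK replicate 2 peak (4.57 and 3.70, and 4.62 and 3.70), and COX8BP had 1 (8.24 and 3.75). For miRNA genes, annotated by their hairpins, the count was 4 of 14, for snRNA genes 3 of 8, for misc_RNA genes 2 of 8 and for snoRNA genes 2 of 5. None of the 4 intervals at antigen receptor segments (IGKC, IGHV5-51, TRBV6-7 and TRGV3) was marked in both, although those at TRBV6-7 and TRGV3 were marked in replicate 1. Numbers of this size leave wide intervals, for example 1.62% to 37.7% for the unprocessed pseudogenes.

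Intervals with and without H3K4me3 differed in DEK tags and width more than in fold enrichment. The median number of DEK replicate 1 tags was 129 at the 146 intervals marked in both replicates (range 24 to 914) and 49 at the 110 marked in neither (21 to 401). In DEK replicate 2 the medians were 41 (13 to 276) and 27 (12 to 1055). The ranges overlap, but in DEK replicate 1 the quartile ranges do not, at 89 to 187 tags with the mark and 32 to 78.25 without. In DEK replicate 2 they overlap, at 29 to 68 and 20 to 39.75 tags. The median peak width was also larger with the mark, at 2022 against 1195 bp in DEK replicate 1 and 1164 against 835 bp in DEK replicate 2, and tags are summed over the width. The median fold enrichment was higher with the mark in DEK replicate 1 (5.44 against 5.01) and lower in DEK replicate 2 (3.84 against 4.34), so that the 2 precipitations gave opposite orders. The same opposition was seen among lncRNA-start intervals alone, with 5.71 against 4.74 and 3.75 against 4.41.

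**Figure D3:**
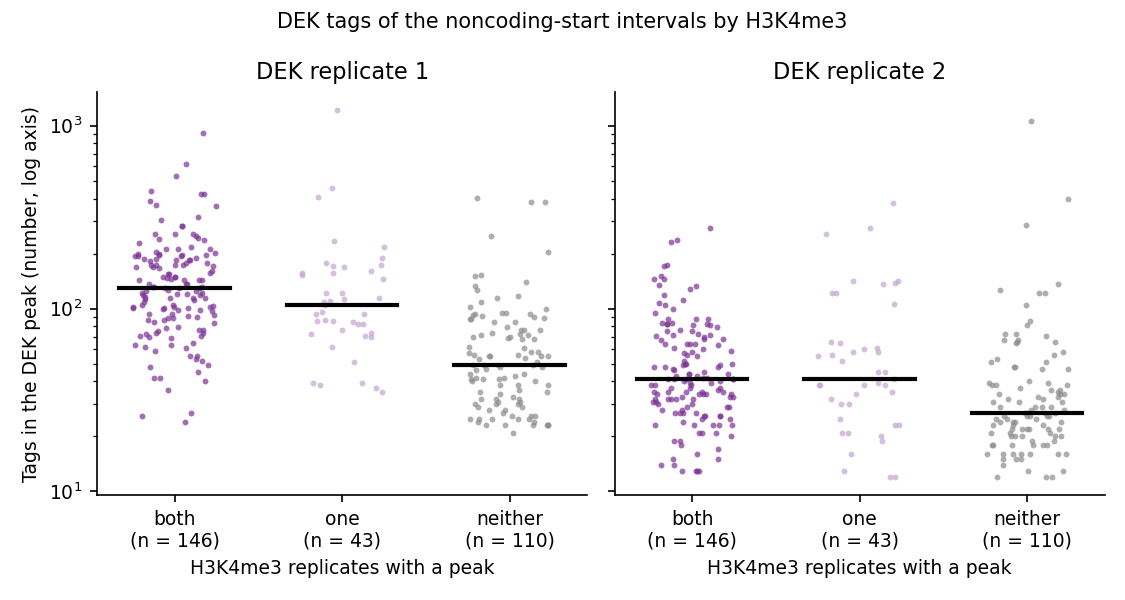
Tags in the DEK peak (y axis, log scale) of each noncoding-start interval in DEK replicate 1 (left) and DEK replicate 2 (right), grouped by whether H3K4me3 peaks of both, one or neither replicate overlap the interval; each point is 1 interval and the black line is the median. The medians fall from 129 to 49 tags between both and neither in DEK replicate 1 and from 41 to 27 in DEK replicate 2, with overlapping ranges.

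The extremes of each measure lay at different genes. The interval at ENSG00000275888 (chr17:80200121-80203467), inside CSNK1D and SLC16A3, belonged to a DEK replicate 2 peak of 19202 bp with 1055 tags, the most of any noncoding-start interval in that list, and to a DEK replicate 1 peak of 3347 bp with 151 tags. It carried no H3K4me3 peak. The most tags in DEK replicate 1 were 1214, at the DUX4-like pseudogene DUX4L50 (chr9:68411868-68415495), where DEK replicate 2 had 377. That interval was marked in H3K4me3 replicate 1 only. The largest fold in DEK replicate 1 was 18.09 at LNCATV, an interferon-related lncRNA, where DEK replicate 2 had 4.11 and only 14 tags against 145. These 3 were picked for their extreme values, and LNCATV alone of them had H3K4me3 in both replicates.

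A wider interval touches another peak more easily, so the comparison was repeated in 3 classes of width that were set after seeing the data. Among intervals of up to 600 bp, 37.5% of the noncoding-start intervals were marked in both replicates, against 58.0% of the coding-start intervals and 16.0% of those away from any TSS. From 600 to 1000 bp the shares were 39.4%, 79.8% and 19.2%, and over 1000 bp 67.3%, 89.0% and 31.2%. The order of the 3 sets was thus the same in every width class. The difference between lncRNA-start and other noncoding-start intervals was 13.2 points among the narrowest, with an interval from -7.58 to 31.5 that spans 0.

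Within the 1000 bp set by the rule, the middles over the whole set were most numerous near the TSS. Of the 299 intervals 64 had their middle within 100 bp of the nearest noncoding TSS and another 55 within 250 bp, and the median distance was 343 bp. By kind, the median was 308 bp at lncRNA-start intervals and 282 bp at pseudogenes. At the 32 small RNA intervals it was 563.5 bp (quartiles 292.8 to 868.2 bp), so the pattern did not hold for them. The TSS itself lay within the shared interval in 182 cases (60.9%). There was no side that the intervals favored, since 158 middles (52.8%, 47.2% to 58.4%) were on the transcribed side. The summits of the 2 precipitations were a median of 304 bp apart (0 to 6185), compared with 180.5 bp at coding-start intervals and 138 bp away from any TSS. The summit lay within 1000 bp of a noncoding TSS for 85.3% of the intervals in DEK replicate 1 and for 91.6% in DEK replicate 2. The share with H3K4me3 in both replicates was 57.8% for middles within 100 bp of the TSS (45.6% to 69.1%), 53.5% from 250 to 500 bp, 35.2% from 500 to 750 bp (23.8% to 48.5%) and 47.3% from 750 to 1000 bp. It did not fall steadily with distance, and the intervals of these shares overlap.

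**Figure D4:**
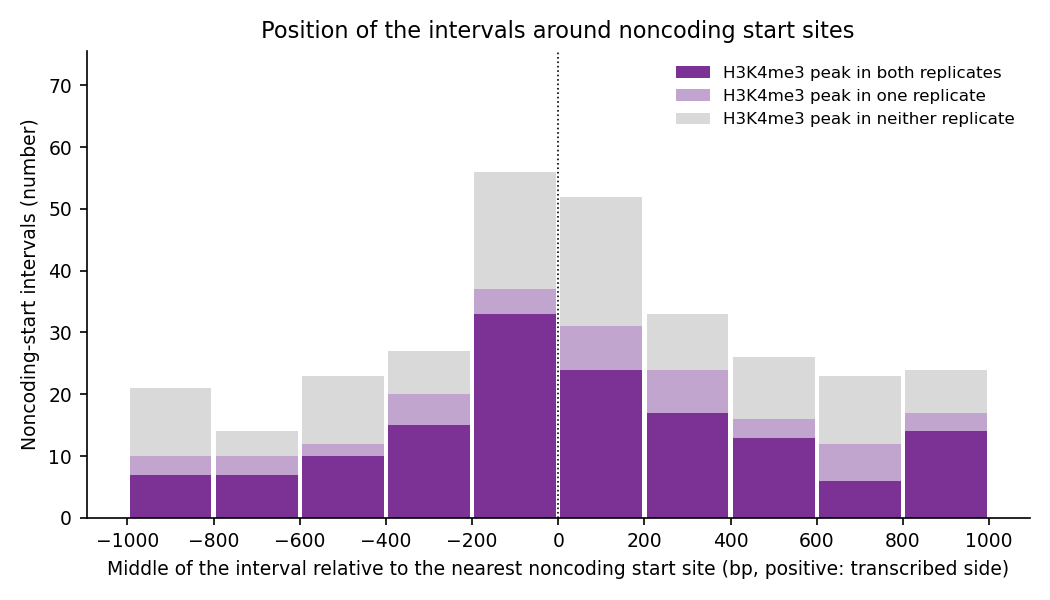
Number of noncoding-start intervals (y axis) by the position of the middle relative to the nearest noncoding TSS (x axis, bp, 200 bp bins, positive on the transcribed side), with the color giving the H3K4me3 replicates that overlap the interval. The middles are most numerous in the bins next to the TSS, with 158 of 299 on the transcribed side, and intervals with and without the mark occur at all distances.

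The distance to coding start sites was wide. The nearest protein-coding TSS was a median of 19269 bp away (1050 to 1829444). For 23 intervals it was 1000 to 2000 bp away and for 26 it was 2000 to 5000 bp away, while 101 had it at 5000 to 20000 bp, 95 at 20000 to 100000 bp and 54 farther off. H3K4me3 in both replicates was seen at 14 of the 23 nearest (60.9%, 40.8% to 77.8%) at 11 of the 26 between 2000 and 5000 bp (42.3%, 25.5% to 61.1%), at 53 of the 101 between 5000 and 20000 bp (52.5%, 42.8% to 61.9%) and at 45 of the 95 between 20000 and 100000 bp (47.4%, 37.6% to 57.3%). At the farthest it was seen at 23 of 54 (42.6%, 30.3% to 55.8%), which for lncRNA-start intervals was 21 of 36 (58.3%). The share did not fall steadily with this distance, and the mark was also present at lncRNA start sites far from any coding TSS.

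The middle lay inside a protein-coding gene, on either strand, in 90 of 299 intervals (30.1%, 25.2% to 35.5%), compared with 57.3% of the intervals away from any TSS and 80.5% of the coding-start intervals. In 14 of the 299 it was in an exon of a coding gene, and in 110 (36.8%) in an exon of a noncoding one. Where 1 coding gene enclosed the middle, the noncoding gene was on the opposite strand in 54 of 81 cases (66.7%, 55.9% to 76.0%). The same share over all annotated noncoding genes inside coding genes was not computed, so a preference of these intervals for a strand cannot be read from it. Intervals marked in both replicates were inside a coding gene less often (22.6%, 16.6% to 30.0%) than those marked in neither (39.1%, 30.5% to 48.4%).

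The DNA of the noncoding-start intervals had a CpG content between that of the other 2 sets. Within 150 bp on either side of the middle, the median ratio of observed to expected CpG was 0.492, against 0.712 at coding-start intervals and 0.428 away from any TSS. Around the middles of DEK replicate 1 peaks alone the noncoding-start median was 0.305, and around those of DEK replicate 2 alone 0.459. Among the shared noncoding-start intervals it was 0.577 where H3K4me3 was present in both replicates and 0.441 where it was in neither. A high ratio did not always go with the mark, as the unmarked interval at snosnR60_Z15 had 0.748. A window with a ratio of at least 0.6 and at least 50% GC, as in a CpG island, was found at 42.5% of the marked intervals (34.7% to 50.6%) and at 20.9% of the unmarked ones (14.4% to 29.4%).

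The gap between lncRNA-start and other noncoding-start intervals was largest in CpG-rich DNA. Above a ratio of 0.6, 57 of 74 lncRNA-start intervals were marked in both replicates (77.0%, 66.3% to 85.1%), and 10 of 32 other noncoding-start intervals (31.3%, 18.0% to 48.6%). In the same class 95.2% of the coding-start intervals and 16.2% of those away from any TSS were marked. Away from any TSS the share was higher, at 25.45%, with a ratio of up to 0.3. The part that repeats have in these classes was not tested. With a ratio of up to 0.3, the lncRNA-start share was 44.4% (29.5% to 60.4%) and the coding-start share 51.2% (42.6% to 59.7%), and the 2 intervals overlap. From 0.3 to 0.6 they were 51.7% and 53.9%. These CpG classes were also set after seeing the data.

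**Figure D5:**
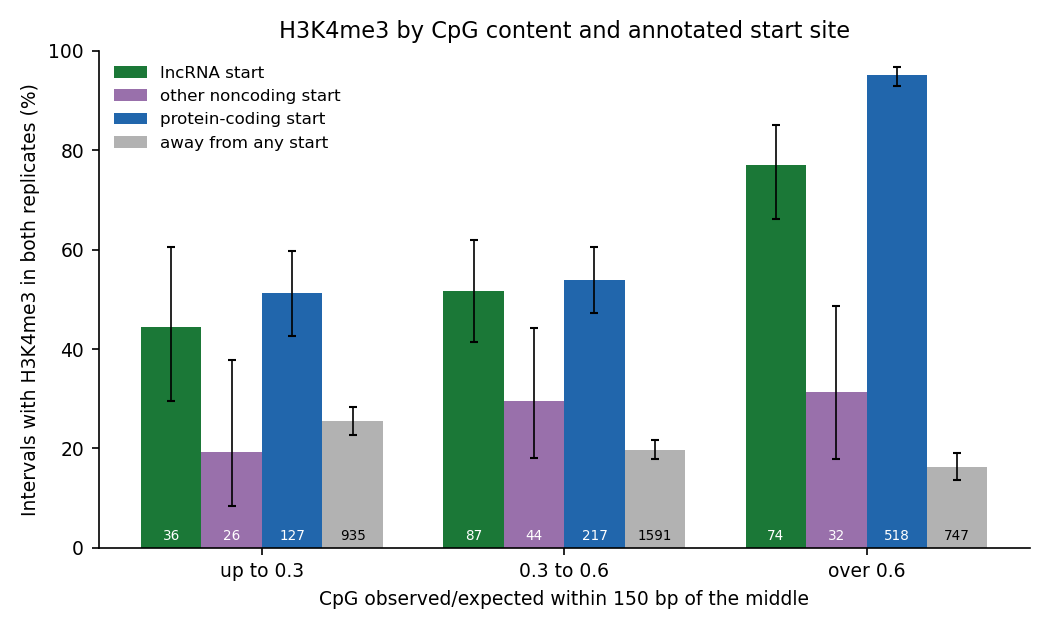
Share of intervals with H3K4me3 in both replicates (y axis, percent) in 3 classes of CpG observed/expected (x axis), for lncRNA-start, other noncoding-start and coding-start intervals and for those away from any TSS; error bars are 95% Wilson intervals and the number in each bar is the number of intervals. Above 0.6 the shares are 77.0%, 31.3%, 95.2% and 16.2%, while below it the lncRNA and coding bars overlap within their errors.

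Short motifs were searched on both strands of the same windows. The GC box GGGCGG, bound by SP1, was found in 30.1% of the noncoding-start windows, 41.0% of the coding-start windows and 18.5% of those away from any TSS (23.6% of all 4435). The noncoding-start share differed by -10.85 points from that at coding-start intervals (-16.8 to -4.535) and by 11.6 points from that away from any TSS (6.52 to 17.2). The core GAGGAA of PU.1, a master factor of myeloid cells, was found in 24.4%, 29.7% and 18.7% (21.2% of all). The RUNX1 core TGTGGT was found in 21.7%, 15.8% and 23.7% (22.1% of all), which put the noncoding-start share 5.96 points above that at coding-start intervals (0.944 to 11.5). The E-box CACGTG of USF1 was found in 5.35%, with 5.66% over all windows. The TATA box TATAAA was found in 8.70% (11.2% of all), and the core of the B box of RNA polymerase III genes in 2.01% (5.93% of all). Letters of this length occur by chance in many windows, and a match is a description of the DNA, not of binding.

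Repeated sequence was present in a minority of the set. The median 31-mer of the interval occurred over 10 times in the genome in 2 of the 297 intervals long enough to be measured (0.673%, 0.185% to 2.42%), against 4.93% away from any TSS. By the peaks of DEK replicate 2 alone the noncoding-start share was 5.27%. It occurred more than once in 45 (15.2%), where reads cannot always be placed at 1 copy. NCF1B and NCF1C, copies of the NCF1 gene of the phagocyte oxidase, are among them with a median of 3 copies each. At least 1 31-mer of over 10 copies was present in 48.2% of the intervals, against 34.7% at coding-start intervals and 68.8% away from any TSS.

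Over all chromosomes, 299 of the 4435 shared intervals were noncoding-start intervals. They made up the largest share of the shared intervals on chromosomes 16 (13 of 133, 9.77%) and 15 (20 of 207, 9.66%). The most by number were on chromosomes 1 (29 of 377, 7.69%), 3 (27 of 388, 6.96%) and 7 (23 of 276, 8.33%), where there were also many shared intervals. Chromosome X had 1 of its 59 shared intervals in the set, and chromosome 22 had 0 of 61. These counts are small and no interval was computed for the shares, so a preference for a chromosome cannot be read from them.

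The limits of the rule split some like regions. The members nearest the 1000 bp limit were at CNN2P3 (999 bp, 4.95 and 4.79), SNORA74 (984 bp, 4.39 and 5.38) and ENSG00000266924 (983 bp, 3.74 and 4.0). Just beyond it lay intervals at RPL36AP7 (1006 bp, 8.85 and 4.13), UBE2R2-AS1 (1007 bp, 5.14 and 8.33) and SDHAP1 (1011 bp, 2.96 and 4.25). On the coding side, intervals at SBNO1-AS1, SENCR and ENSG00000268362 were kept, with the nearest transcript TSSs of SBNO1, FLI1 and ZNF254 at 1050, 1072 and 1074 bp. Those at ENSG00000251139, ENSG00000273188 and H1-12P were left out, with the nearest transcript TSSs of ACSL1, TRABD and H3C4 at 992, 960 and 915 bp. The 3 kept and the 3 left out on the coding side were all marked by H3K4me3 in both replicates. SENCR lies antisense to FLI1, an ETS transcription factor gene, and had 5.27 and 2.50.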

How the data were processed

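DEK, H3K4me3 and Input chromatin of untreated U937 cells was sequenced in 2 samples each. Per the methods, which describe the DEK precipitations, the authors aligned the paired reads (Bowtie 2, hg19) and called peaks with MACS 1.4.1. The methods describe no H3K4me3 precipitation, so how those peaks were called is not stated there. The deposited DEK lists give the count of tags, the score as 10 times the negative log10 of a p-value, the fold enrichment (a ratio over local background) and the false discovery rate in percent. The deposited H3K4me3 lists give positions only. Input served as control and was not analysed here as a list. The methods state a lower bound on sequencing depth, but each sample's reads are not in the lists, and nothing says that the 2 precipitations came from separate cultures.

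DEK peaks of both replicates were intersected (at least 1 bp) and the shared stretch was kept. Distances ran from its middle to the TSSs of 64449 genes in GENCODE 44 on GRCh37. None of the 242463 peaks on these chromosomes ended beyond a GRCh37 chromosome. An interval carried H3K4me3 if a peak overlapped it by at least 1 bp. CpG observed/expected, GC and motifs were taken from 150 bp on either side of the middle, and copy number from exact 31-mers of the genome (median over 10 taken as high-copy). Shares have 95% Wilson and differences 95% Newcombe intervals, which cover counting error only. No test between regions was run. Tables were handled with pandas 2.3.3 and NumPy 2.4.6 under Python 3.11.15. The Wilson and Newcombe intervals were coded with NumPy, and SciPy 1.17.1 gave the error of the medians. The 31-mer counts came from Numba 0.67.0 and plots from Matplotlib 3.10.9. The code was tested on simulated data in 10 checks.

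Genes were named if among the 15 largest lower folds, the 5 largest lower scores, 3 lists of noncoding genes or the nearest to the limits of the rule. Other genes were chosen after their values were seen. The sequences of some named intervals are not reported here. Of the lists, 5 small RNA and 4 myeloid genes had no entry of that name in the annotation used. The regions and lists were chosen with earlier results of these data known. Alternatives changed the overlap, the TSS window, the TSS set, a score minimum, the H3K4me3 rule and the replicates used, and width and CpG classes were added after seeing the data.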

Additional observations from a re-analysis of the deposited data

How the results depend on the processing

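Of 149 recomputed values 104 moved by less than their error or, for the number of intervals, by less than a factor of 1.5, while 45 moved by more and 0 changed direction. In the order share with H3K4me3 in both replicates, difference from coding-start intervals, difference from intervals away from any TSS (percentage points) and lncRNA-start minus other noncoding-start intervals, the values that moved were as follows. A 500 bp TSS window left 209 intervals and gave a share of 56.5% (median CpG observed/expected 0.546) and a 2000 bp window left 420 and gave 43.1%. A peak in either H3K4me3 replicate gave 63.2% and -22.1 points from coding-start intervals. An overlap of 50% of each DEK peak left 150 intervals, with 45.3 points between lncRNA-start and other intervals and 24.7% inside a coding gene. Keeping peaks scored 100 or more in each DEK replicate left 50 intervals, with 72.0%, -18.2 and 45.3 points, median folds of 6.90 and 4.24, 74% at lncRNAs, 18.0% inside a coding gene, a CpG ratio of 0.590 and 0% high-copy sequence. The outermost TSS of each gene gave -43.0 points and 38.5% inside a coding gene. By width, the differences from coding-start intervals and from those away from any TSS were -20.5 and 21.5 points up to 600 bp, -40.4 and 20.2 points to 1000 bp and -21.7 and 36.1 points above, and lncRNA-start minus other intervals was 13.2 points up to 600 bp. By CpG ratio, they were -17.3 and 8.42 points up to 0.3, where the latter had an interval of -2.50 to 21.1. From 0.3 to 0.6 the difference from coding-start intervals was -9.64 points (-20.1 to 1.18). Above 0.6 the difference from intervals away from any TSS was 47.0 points and lncRNA-start minus other intervals 45.8 points.

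Leaving out each DEK or H3K4me3 replicate in turn gave 299 to 7266 intervals, of which 791 were without DEK replicate 2 and 7266 without DEK replicate 1. The share with H3K4me3 ran from 11.1% to 62.5%, the difference from coding-start intervals from -28.8 to -22.7 points, the difference from intervals away from any TSS from 7.86 to 28.4 points and lncRNA-start minus other intervals from 13.2 to 33.5 points. The low ends of the share, of the difference from intervals away from any TSS and of the lncRNA difference all came without DEK replicate 1. The median fold was 5.47 in DEK replicate 1 alone and 4.50 in DEK replicate 2 alone. The share at lncRNAs ran from 51.7% to 66.1%, the share inside a coding gene from 27.8% to 34.3%, the CpG ratio from 0.305 to 0.459 among the DEK lists alone and the high-copy share from 0.885% to 5.27%. The cause of these shifts was not tested. No paired analysis was possible because no result comes from a test between groups of samples. Whether samples with the same number share chromatin is not stated.

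The limits are 2 precipitations per antibody, a false discovery rate of 100% in the DEK replicate 1 list, reads per sample not given in the lists, and H3K4me3 lists without scores, so that only presence or absence of a peak can be compared.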
